A study of Mus musculus with 18 samples.

Results

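The Lhx1 domain is a 338 kb stretch of mouse chromosome 11 (mm9, chr11:84304951-84642925) that runs from within Aatf, downstream of Lhx1, to far upstream of the Lhx1 promoter. Its members were all DpnII restriction fragments between these ends, except those within 2 kb of the captured promoter zone (chr11:84337443-84339620). The digest gave 831 such fragments of 295448 on the chromosome, and 794 of them held at least 1 read from the Lhx1 viewpoint. The ends of the domain are those of the compartment the study drew from these same contact profiles, so the height of contacts inside against outside is a description here. The captured zone lies near the left end, which leaves an arm of 32.5 kb on the left and of 303 kb on the right. Lhx1 is read from the reverse strand, so positions to the right lie upstream of the gene. Positions of bins, stretches and fragments in kb count from the middle of the captured zone, and are negative to the left. A fragment is placed by its midpoint.

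Next Generation (NG) Capture-C was used to read the contacts. Chromatin was crosslinked, cut with DpnII and religated, and ligation products that held a chosen promoter were pulled down with oligonucleotides and sequenced. Each cell type had 3 libraries. Embryonic stem cells (ESC, strain 129/Sv//EV, day 0) were grown with LIF on gelatin. Definitive endoderm (DE, same strain, day 5) came from embryoid bodies made from ESC without LIF and moved on day 2 into N2B27 medium with activin A and EGF. Erythrocytes (C57BL/6, labelled day 5) came from spleens of mice treated with phenylhydrazine. This drug destroys red cells and fills the spleen with their precursors. Strain and source differ together between erythrocytes and the other cells and cannot be told apart. The columns used here hold contacts and no expression, so cell identity was not checked against marker genes.

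Lhx1 encodes a LIM homeodomain transcription factor needed for anterior mesendoderm and head formation, and it acts downstream of Eomes, a T-box factor needed for definitive endoderm. Promoters of silent developmental regulators in ESC carry Polycomb proteins, and such promoters often touch each other. Distal enhancers reach a promoter by looping within a shared stretch of chromatin, whose ends are often bound by CTCF.

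The sequences that follow locate the contacts described later. All were read from the mm9 genome (NCBIM37), and capitals mark CpG dinucleotides. The Lhx1 promoter, the viewpoint of all values here, is shown on the reverse strand from 250 bases before to 50 bases after the annotated start (chr11:84338874-84339173). It held 31 CpG in 300 bases.
Lhx1 promoter: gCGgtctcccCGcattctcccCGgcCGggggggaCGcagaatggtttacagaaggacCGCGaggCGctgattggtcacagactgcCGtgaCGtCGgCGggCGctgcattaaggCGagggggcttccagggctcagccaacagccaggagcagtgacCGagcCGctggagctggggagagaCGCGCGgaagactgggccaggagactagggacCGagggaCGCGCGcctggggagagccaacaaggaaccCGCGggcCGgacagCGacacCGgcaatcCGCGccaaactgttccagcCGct
A pair of the fragments with the largest rise from ESC to DE is shown on the forward strand, in their first 300 bases. The first lies inside 1700109G15Rik, a processed transcript of unknown role, and the other spans its start.
chr11:84532750-84533049, 194 kb from the zone: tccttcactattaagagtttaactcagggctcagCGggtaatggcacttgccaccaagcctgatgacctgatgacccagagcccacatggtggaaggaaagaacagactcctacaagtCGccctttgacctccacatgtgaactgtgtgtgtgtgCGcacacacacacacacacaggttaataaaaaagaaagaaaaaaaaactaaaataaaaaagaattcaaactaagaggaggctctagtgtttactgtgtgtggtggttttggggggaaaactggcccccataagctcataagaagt
chr11:84533669-84533968, 195 kb from the zone: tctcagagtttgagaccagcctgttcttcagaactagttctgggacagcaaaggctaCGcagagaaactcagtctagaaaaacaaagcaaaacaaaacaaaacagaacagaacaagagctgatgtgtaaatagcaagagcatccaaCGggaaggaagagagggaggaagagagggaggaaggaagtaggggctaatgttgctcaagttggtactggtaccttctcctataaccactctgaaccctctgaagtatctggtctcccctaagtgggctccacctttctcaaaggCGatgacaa
The 3 fragments with the largest fall are shown in the same way, the first pair whole. The first pair lies in no annotated gene and the last in 1500016L03Rik, a lincRNA read away from Lhx1.
chr11:84449058-84449243, 111 kb from the zone: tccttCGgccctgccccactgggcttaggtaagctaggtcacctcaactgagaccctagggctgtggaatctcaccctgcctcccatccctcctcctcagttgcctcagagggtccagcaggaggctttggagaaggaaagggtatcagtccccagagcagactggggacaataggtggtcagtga
chr11:84447176-84447259, 109 kb from the zone: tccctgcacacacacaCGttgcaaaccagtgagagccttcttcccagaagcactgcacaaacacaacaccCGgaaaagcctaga
chr11:84341748-84342047, 3.39 kb from the zone: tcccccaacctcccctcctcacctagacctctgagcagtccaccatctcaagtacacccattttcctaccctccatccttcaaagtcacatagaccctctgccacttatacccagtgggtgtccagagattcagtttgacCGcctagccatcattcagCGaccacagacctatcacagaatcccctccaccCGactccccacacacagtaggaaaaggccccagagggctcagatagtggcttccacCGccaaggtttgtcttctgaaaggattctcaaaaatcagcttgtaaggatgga

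Depth set the precision. The Lhx1 viewpoint had 7196 to 14412 reads on chromosome 11 in the ESC libraries, 15845 to 24540 in the DE libraries and 3123 to 9392 in the erythrocyte libraries. All values below are per 100000 interactions on chromosome 11 unless a share is named. The part of all Lhx1 reads that lay on chromosome 11 was 55.9% to 65.3% in ESC and 53.5% to 55.7% in DE. In erythrocytes it was 38.1%, 73.3% and 37.8%, so replicate 2 stood apart. The fragments left out around the zone held 12.9% to 14.4% of chromosome 11 reads in ESC and 5.73% to 6.41% in DE. In erythrocytes they held 16.8%, 12.6% and 35.5%, with replicate 3 the highest. Both shares were lower in every DE library than in every ESC library. Erythrocyte libraries lay on both sides of the ESC range in both shares. The part of these shares in the results was not tested.

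More of the Lhx1 contacts fell in the domain in DE than in ESC, and fewer did in erythrocytes. The domain took 42.0%, 40.6% and 39.7% of chromosome 11 interactions in the ESC libraries. It took 46.7%, 47.0% and 47.3% in the DE libraries, all above every ESC library. The erythrocyte libraries had 21.8%, 24.7% and 22.3%, all below both other cell types. The widest 95% Wilson interval, which covers counting error only, was 23.2% to 26.3% for erythrocyte replicate 2.
The DE mean of 47.0% ± 0.279 (SD, n = 3) was 6.27 percentage points above the ESC mean of 40.7% ± 1.17 (p = 0.1 by an exact permutation test, two-sided, which cannot go lower with 3 libraries a group). The erythrocyte mean of 22.9% ± 1.56 differed by -17.8 points from ESC and by -24.1 points from DE, each with p = 0.1 by the same exact permutation test. Against ESC, the DE gain rested on the total used. With the interactions of all chromosomes as the total, the shares were 25.7% in DE and 25.3% in ESC, a difference of 0.335 points with overlapping libraries. With only contacts beyond 20 kb counted, it was 8.54 points.

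These contacts were far above what other viewpoints read in the same place. The Hba promoter, far away on the same chromosome, put 66.2 ± 14.6 of 100000 chromosome 11 interactions in the domain in ESC, 54.3 ± 8.86 in DE and 88.3 ± 24.2 in erythrocytes. From the Lhx1 promoter the numbers were 40746, 47012 and 22936. The Eomes promoter, on another chromosome, put between 6.97 and 36.3 of 100000 of all its interactions there over the 9 libraries.

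The gain in DE was not spread evenly. Cut into 68 bins of 5 kb, the domain had 29 bins higher and 5 bins lower in DE than in ESC (limma, Benjamini-Hochberg adjusted p under 0.05 over all chromosome 11 bins). Over the whole chromosome, these domain bins included, 33 of 640 tested bins (5.16%) were higher and 25 (3.91%) were lower. The 29 higher bins lay in 2 unbroken runs on the right arm, of 9 bins from 51.4 to 96.4 kb and of 20 bins from 126 to 226 kb. The 5 lower bins lay in a group of 3 around the captured zone, from -8.58 to 6.42 kb, and in a pair from 106 to 116 kb between the gained runs. Libraries did not overlap at 40 bins higher and 6 lower in DE, against 13.6% and 11.4% of all tested bins. The median log2 fold change of the domain bins was 0.53, and that of all tested bins 0.14. With all interactions as the total these medians were 0.34 and 0.00, and 23 domain bins were higher and 7 lower. In a fit with all 3 cell types 2 were higher and 3 lower.

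**Figure D1:**
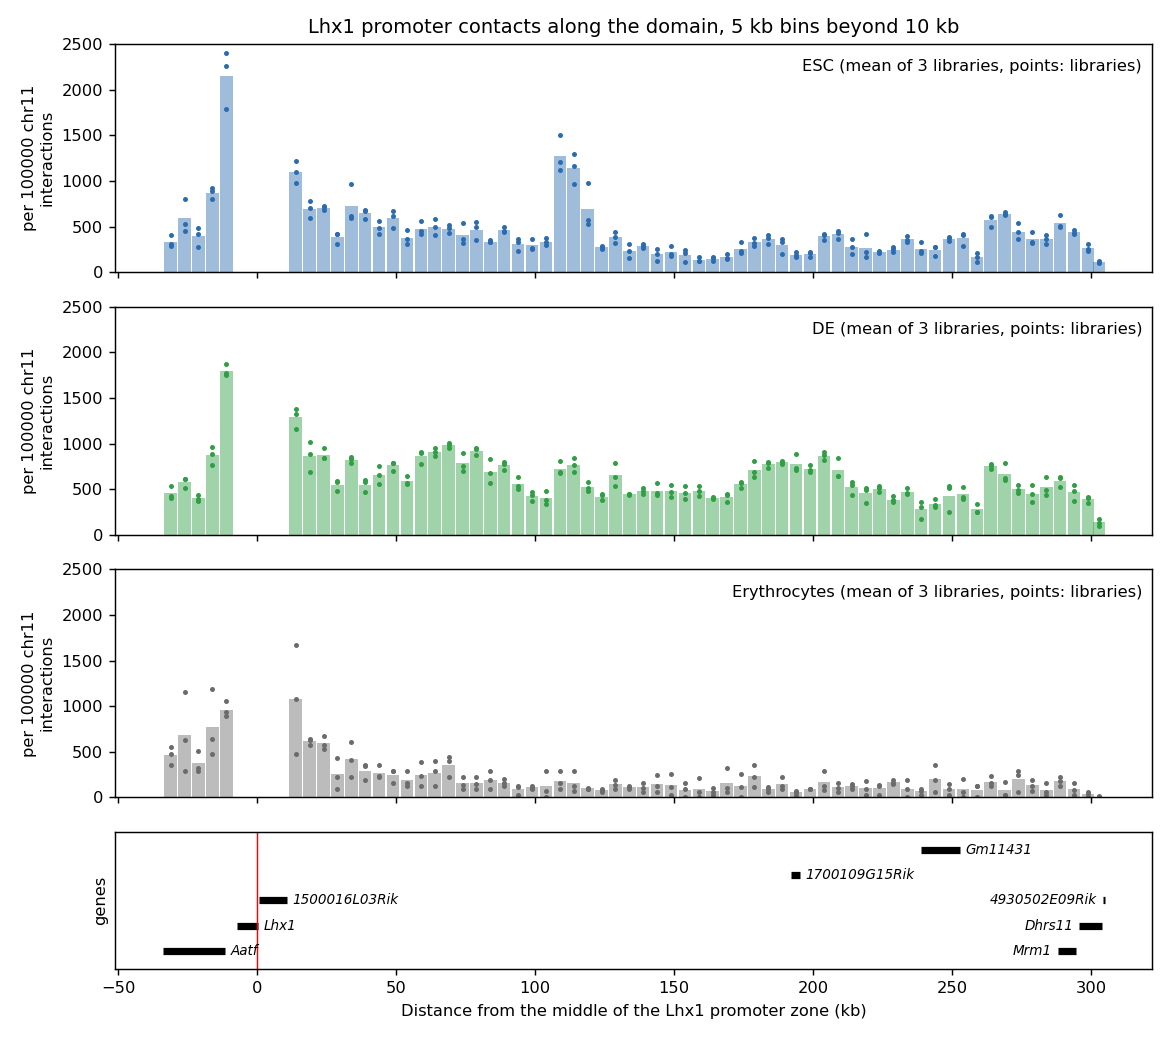
Lhx1 promoter contacts in 5 kb bins along the domain (bars, mean of 3 libraries; points, single libraries; y axis, per 100000 chromosome 11 interactions), with the bins centred within 10 kb of the zone left out and annotated genes below. ESC had a peak of 1278 and 1145 in the bins from 106 to 116 kb, DE rose to either side of it, and the erythrocyte profile fell away within about 50 kb.

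**Figure D2:**
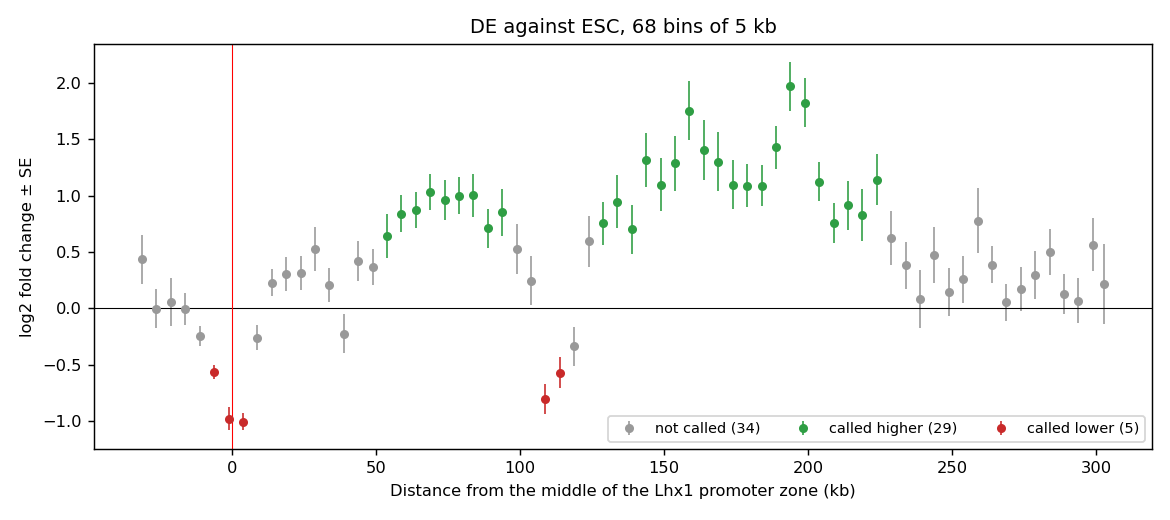
Log2 fold change of DE against ESC (log2 of the value + 10, limma, bars ± SE) for the 68 bins by distance from the middle of the zone. The 29 bins called higher form runs to both sides of the pair called lower near 110 kb.

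In the nearer gained run, from 51.4 to 96.4 kb, every bin was called higher. The run held 3785, 3948 and 3655 in the ESC libraries and 7217, 6805 and 7100 in the DE libraries. The DE mean was 1.85 times the ESC mean, and the log2 fold changes of its bins lay between 0.64 and 1.03. The highest of all DE bins beyond 20 kb was here, from 66.4 to 71.4 kb. It stood at 979 ± 24.8 (SD, n = 3) in DE against 475 ± 41.7 in ESC, where it ranked 15th of 60 bins. No gene is annotated in this run.

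The farther gained run, from 126 to 226 kb, was the lowest stretch of the ESC profile and rose the most. It held 4684, 5613 and 5183 in the ESC libraries and 11643, 11561 and 11827 in the DE libraries. The DE mean was 2.26 times the ESC mean, and the log2 fold changes lay between 0.70 and 1.97. In ESC this run had 51.5 contacts per kb, fewer than the 73.7 per kb in the stretch beyond it, from 226 to 304 kb. In DE the order was the other way, at 117 and 91.0 per kb. The ratio of the nearer to the farther stretch was 0.601, 0.775 and 0.730 in the ESC libraries and 1.29, 1.22 and 1.33 in the DE libraries, with no overlap. These runs were read from the same fit, and chosen after their values were seen, so their sums are a description.

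The largest rise of any bin was at 1700109G15Rik. The bin from 191 to 196 kb (chr11:84529951-84534950) holds the whole transcript. It stood at 164, 187 and 222 in the ESC libraries and at 726, 713 and 890 in the DE libraries. All DE libraries were far above all ESC libraries, with a log2 fold change of 1.97 (SE 0.21, limma adjusted p = 1.12e-17). The next bin out, from 196 to 201 kb, rose in the same way, from 164, 208 and 222 to 711, 693 and 764 (log2 fold change 1.83, SE 0.22, limma adjusted p = 4.94e-15). These were the only higher bins that kept their call in each of the 16 other fits over the same bins, the fit with all 3 cell types included.

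The other bins of largest rise lay in the same run. The bin from 156 to 161 kb went from 164, 118 and 125 in ESC to 477, 428 and 530 in DE (log2 fold change 1.75). The bin from 186 to 191 kb went from 199, 361 and 334 to 809, 799 and 776 (log2 fold change 1.43). The bins from 161 to 166 kb and from 141 to 146 kb had log2 fold changes of 1.40 and 1.32. None of the 4 overlapped between DE and ESC libraries, and no annotated gene lies in them.

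Between the gained runs, ESC had a peak that was lower in DE. The bin from 106 to 111 kb (chr11:84444951-84449950) was the highest of the 60 bins beyond 20 kb in ESC, at 3.54 times their median. It stood at 1507, 1117 and 1209 in the ESC libraries and at 804, 689 and 675 in the DE libraries, where it ranked 16th. All DE libraries were below all ESC libraries (log2 fold change -0.81, SE 0.13, limma adjusted p = 8.47e-08).
The bin beside it, from 111 to 116 kb, ranked second in ESC and was lower in DE too, from 1297, 971 and 1167 to 763, 693 and 839 (log2 fold change -0.57, SE 0.14, limma adjusted p = 0.000492). This call was lost without DE replicate 2. In the fit with all 3 cell types neither bin of the pair was called (limma adjusted p = 0.300 and 0.588). The third bin, from 116 to 121 kb, which holds an annotated miRNA gene, had 981, 569 and 528 in ESC and 576, 485 and 518 in DE, and these overlapped (log2 fold change -0.34, limma adjusted p = 0.245).
The peak was built from many fragments. Of the 35 fragments in the pair of lower bins, 33 were tested and 26 of these had a log2 fold change below 0, while 2 passed the test alone. The pair was picked where the sum of these fragments fell, so a majority below 0 follows from the choice. Libraries did not overlap at 10 of the 33, all lower in DE. Over the 762 tested members 553 had a log2 fold change above 0, and libraries did not overlap at 37 lower and 193 higher. The largest single fragment gave 6.84% of the ESC mean of the pair. In DE the pair had 153 contacts per kb, close to the 158 per kb of the nearer gained run, while in ESC it had 249 per kb against 85.2.

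**Figure D3:**
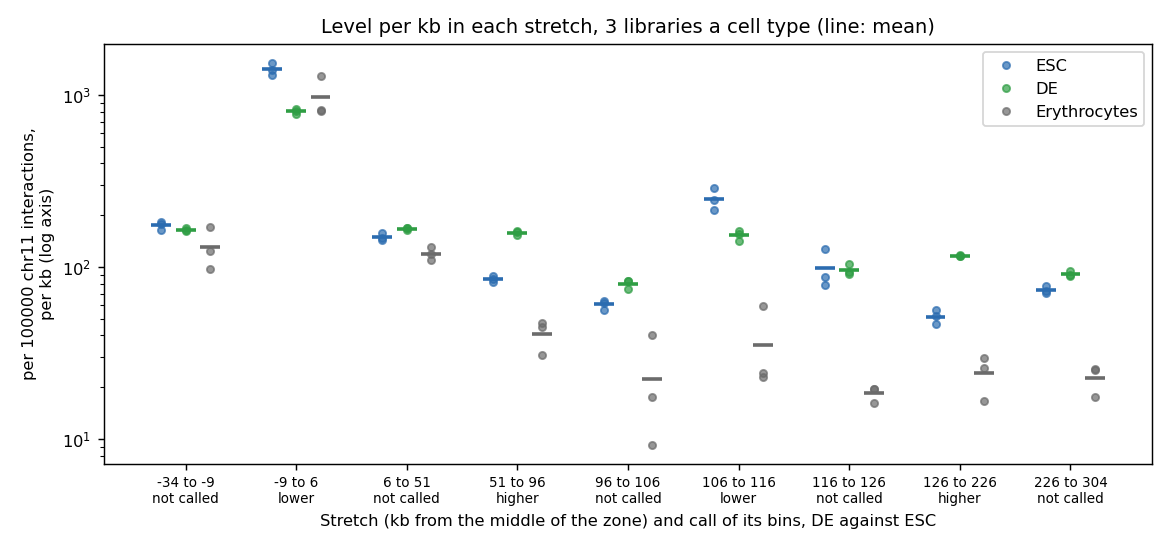
Level per kb (per 100000 chromosome 11 interactions, log axis) in the 9 stretches that the calls of DE against ESC mark off, for 3 libraries a cell type (points) and their mean (lines). DE lay at 158 and 117 per kb in the stretches called higher against 85.2 and 51.5 in ESC. Erythrocytes lay below both in every stretch from 6.42 kb outwards.

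Around the captured zone contacts were lower in DE. The bin from -8.58 to -3.58 kb, over the body of Lhx1, stood at 5011, 4593 and 4113 in the ESC libraries and at 2890, 3130 and 3231 in the DE libraries (log2 fold change -0.56, SE 0.06, limma adjusted p = 4.26e-17). The bin on the other side, from 1.42 to 6.42 kb over part of 1500016L03Rik, fell from 4404, 3393 and 4294 to 1925, 1997 and 2045 (log2 fold change -1.01, SE 0.07, limma adjusted p = 1.44e-38). The bin that holds the zone, with its left-out fragments removed, had a log2 fold change of -0.98. These 3 bins held 10817 ± 911 (SD, n = 3) in ESC and 6186 ± 194 in DE, and they kept their call in all 16 other fits. The left-out fragments moved the same way, as given above. A share of a fixed total rises elsewhere when it falls near the zone, and the part of this in the gains farther out was not tested. With both the total and the members taken beyond 20 kb, the DE share was 8.54 points above ESC. With the interactions of all chromosomes as the total, it was 0.335 points above, with overlapping libraries.

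Contacts of the left arm beyond -8.58 kb and of the far right end were not called in DE against ESC. No bin of the 5 on the left from -33.6 to -8.58 kb passed limma, edgeR or DESeq2, with 1 higher and 1 lower at an unadjusted p under 0.05. These 5 bins held 4450, 4538 and 4058 in ESC and 4037, 4201 and 4064 in DE, and the libraries overlapped. Beyond 20 kb alone the left arm had 77.2, 89.2 and 96.0 contacts per kb in ESC and 102, 103 and 102 in DE, without overlap. None of the 16 bins from 226 to 304 kb passed limma, edgeR or DESeq2, with 5 higher at an unadjusted p under 0.05. Their sum, at 6074, 5648 and 5531 in ESC and 7020, 7359 and 6936 in DE, did not overlap and had a ratio of 1.24. The 9 bins from 6.42 to 51.4 kb, also without a call by the 3 tools and with 5 higher and 1 lower at an unadjusted p under 0.05, had a ratio of 1.11.

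By gene, the transcript far upstream differed and the genes at the edges overlapped. Over the body of 1700109G15Rik the ESC libraries had 140, 118 and 181 and the DE libraries 540, 522 and 694, a ratio of 4.00 from 42 and 342 reads. The part of Aatf in the domain, a gene for a cofactor of RNA polymerase II with a role in apoptosis, had 2511, 2859 and 2460 in ESC and 2750, 2889 and 2588 in DE. Its start lies in the bin from -13.6 to -8.58 kb, which had a log2 fold change of -0.25 (limma adjusted p = 0.0611), and passed in 5 of the 16 other fits.
Mrm1, which encodes a mitochondrial rRNA methyltransferase, had 783, 701 and 862 in ESC and 732, 933 and 738 in DE. Dhrs11, a dehydrogenase/reductase gene at the right end, had 362, 444 and 375 in ESC and 441, 619 and 555 in DE. Gm11431, a processed transcript, had 783, 722 and 667 in ESC and 986, 1011 and 593 in DE. The ESC and DE libraries overlapped over the bodies of Aatf, Mrm1, Dhrs11 and Gm11431, and the bins of the starts of Gm11431, Mrm1, Dhrs11 and the lincRNA 4930502E09Rik were not called in any fit.

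At single fragments a smaller share passed. Of the 831 fragments 762 had at least 10 reads over the ESC and DE libraries. By limma 41 of these were higher and 14 lower in DE. With a median of 6 ESC reads, most of the 41 reached the minimum only through DE, where they were high. Their number and places are a description. The adjustment was over 1234 fragments of chromosome 11, domain included, of which 42 (3.40%) were higher and 34 (2.76%) lower. The median log2 fold change was 0.50 over the tested members and 0.41 over all tested fragments. Of the 41 higher fragments 38 lay in higher bins, and all lay between 21.8 and 260 kb on the right. Of the 14 lower ones 12 lay within 20 kb of the zone and 2 in the pair of bins near 110 kb.
The counts rested on scaling, on the minimum of reads and on single libraries. With TMM scaling 16 fragments were higher and 17 lower, with DESeq2 size factors 20 and 16, and with all interactions as the total 27 and 18. With no minimum of reads 3 were higher and 11 lower. Without ESC replicate 1, DE replicate 1, DE replicate 2 and DE replicate 3 the calls were 30, 36, 12 and 12.

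The fragments whose sequences are given above had few ESC reads where they rose. The fragment at chr11:84532750-84533135 in 1700109G15Rik had 0, 1 and 0 reads in ESC and 18, 23 and 26 in DE. From pooled reads scaled to the totals it was 33.9 times higher in DE, with an exact 95% counting interval of 5.88 to 1358. The fragment at chr11:84533669-84534092, over the start of the transcript, had 0, 6 and 0 reads in ESC and 22, 29 and 15 in DE, a ratio of 5.56 (2.42 to 15.7). All 6 of its ESC reads were in replicate 2. Neither fragment overlapped between cell types. Both passed the minimum of 10 reads only through DE, the group where they were high, and their values are a description. Over the 41 higher fragments the median was 6 ESC reads, with 2 fragments without an ESC read and 10 with 1 to 3.

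The fragments that fell were better covered near the zone than far from it. The fragment at chr11:84341748-84342103, in 1500016L03Rik, stood at 1799, 1415 and 1918 in ESC and at 623, 681 and 625 in DE (log2 fold change -1.39, SE 0.13, limma adjusted p = 7.99e-11), and was called in all 16 other fits. In the ESC peak, the fragment at chr11:84449058-84449243 had 8, 11 and 12 reads in ESC and 5, 10 and 2 in DE, a ratio of 0.277 (0.144 to 0.517). The fragment at chr11:84447176-84447259 had 10, 15 and 5 reads in ESC and 3, 10 and 5 in DE, a ratio of 0.303 (0.159 to 0.562). Scaled, neither overlapped between cell types, and they passed in 10 and 6 of the 16 other fits.

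The contacts leaned to the right, the upstream side, in ESC and DE. Per kb, the right side held 1.93 ± 0.152 (SD, n = 3) times the left side at 20 to 50 kb in ESC and 1.88 ± 0.0700 in DE, with overlap. At 50 to 100 kb the ratio was 1.87, 2.38 and 2.22 in the ESC libraries and 2.98, 3.28 and 3.81 in the DE libraries, without overlap. At 100 to 200 kb it was 4.24 ± 0.161 and 4.60 ± 0.413, with overlap, and at 200 to 300 kb 5.48 ± 0.596 and 7.03 ± 0.715, without. The domain ends at -33.6 kb, so the left side of the ratio at 20 to 50 kb lies partly outside it. From 50 kb outwards the left side lies wholly outside. Inside the domain, the left arm beyond 20 kb held 0.0888% of chromosome 11 interactions per kb in ESC and 0.102% in DE. The right arm at 20 to 50 kb held 0.119% and 0.140% per kb, over a wider range of distances.
In erythrocytes no such lean was seen out to 100 kb. The ratio was 0.996, 0.845 and 0.957 at 20 to 50 kb and 0.980, 0.861 and 1.18 at 50 to 100 kb. It reached 1.22 ± 0.0699 at 100 to 200 kb and 2.50 ± 0.486 at 200 to 300 kb, below every ESC and DE library at each distance, with 317 reads or more on the left out to 200 kb and 165 beyond.

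**Figure D4:**
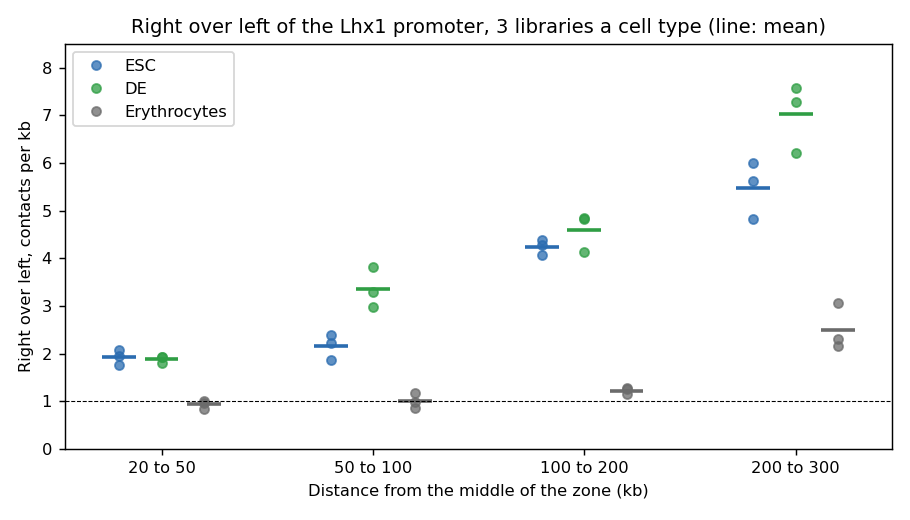
Contacts per kb on the right of the captured zone over those at the same distance on the left, for 3 libraries a cell type (points) and their mean (lines), with equality dashed. ESC and DE rise from about 1.9 to above 4.8, while erythrocytes stay near 1 out to 100 kb.

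In erythrocytes contacts far along the right arm were lower than in the other cells. Those of the left arm beyond -8.58 kb overlapped with them. Around the zone, from -8.58 to 6.42 kb, the 3 bins held 6165, 6276 and 9869 in erythrocytes, which lay below every ESC library and overlapped with DE. No bin there was called by limma, edgeR or DESeq2 against either cell type, with 2 lower against ESC and none against DE at an unadjusted p under 0.05. On the left arm from -33.6 to -8.58 kb erythrocytes held 3077, 4259 and 2427, overlapping both other cell types. The exception there was the bin of the Aatf start, with 937, 1057 and 894 in erythrocytes, which was called lower against ESC (log2 fold change -1.14, limma adjusted p = 0.0165) and against DE (-0.90, limma adjusted p = 0.0102). From 6.42 kb outwards on the right every stretch was below every ESC and DE library. The nearest of these stretches, from 6.42 to 51.4 kb, held 5430, 5956 and 5046 in erythrocytes. It had 2 bins called lower against ESC and 2 against DE. From 10 to 20 kb alone erythrocytes overlapped with both cell types, and from 20 to 50 kb they did not.

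Over the chromosome, domain included, 54 of 370 tested bins (14.6%) were lower in erythrocytes than in ESC by limma. In the domain 23 of 68 bins were lower and none was higher. In this limma fit no domain bin was higher at an unadjusted p under 0.05, and edgeR and DESeq2 called none higher. With TMM 1 and with DESeq2 size factors 2 were higher at an unadjusted p under 0.05. Libraries did not overlap at 46 lower bins and at no higher bin, against 32.4% and 1.62% of all tested bins. The median log2 fold change was -1.31 in the domain and -0.93 over all tested bins. The call count moved with scaling, to 9 with TMM and 3 with DESeq2 size factors, under which the median of all tested bins was -0.66 and -0.46. It was also 0 without ESC replicate 1 (32 bins at an unadjusted p under 0.05), 3 without ESC replicate 2 or 3 and 35 without erythrocyte replicate 2.

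Over the chromosome, domain included, 57 of 522 tested bins (10.9%) were lower in erythrocytes than in DE by limma. In the domain 42 bins were lower and none was higher. In this limma fit no domain bin was higher at an unadjusted p under 0.05, and edgeR and DESeq2 called none higher. In other fits 2 were called higher with no minimum of reads and 1 without erythrocyte replicate 2. With DESeq2 size factors 8 were higher at an unadjusted p under 0.05. Libraries did not overlap at 58 lower bins and 1 higher bin, against 31.2% and 2.11% of all tested bins. The median log2 fold change was -2.03 in the domain and -0.86 over all tested bins. With DESeq2 size factors, under which the median of all tested bins was -0.36, 5 bins were called, and without DE replicate 3 the count was 22. All 9 bins of the nearer gained run and 15 of 20 of the farther one were lower in erythrocytes than in DE, against 2 and 3 compared with ESC. Both comparisons share the erythrocyte libraries, and these runs were picked where DE lay above ESC, so more calls against DE than against ESC follow from the choice.

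**Figure D5:**
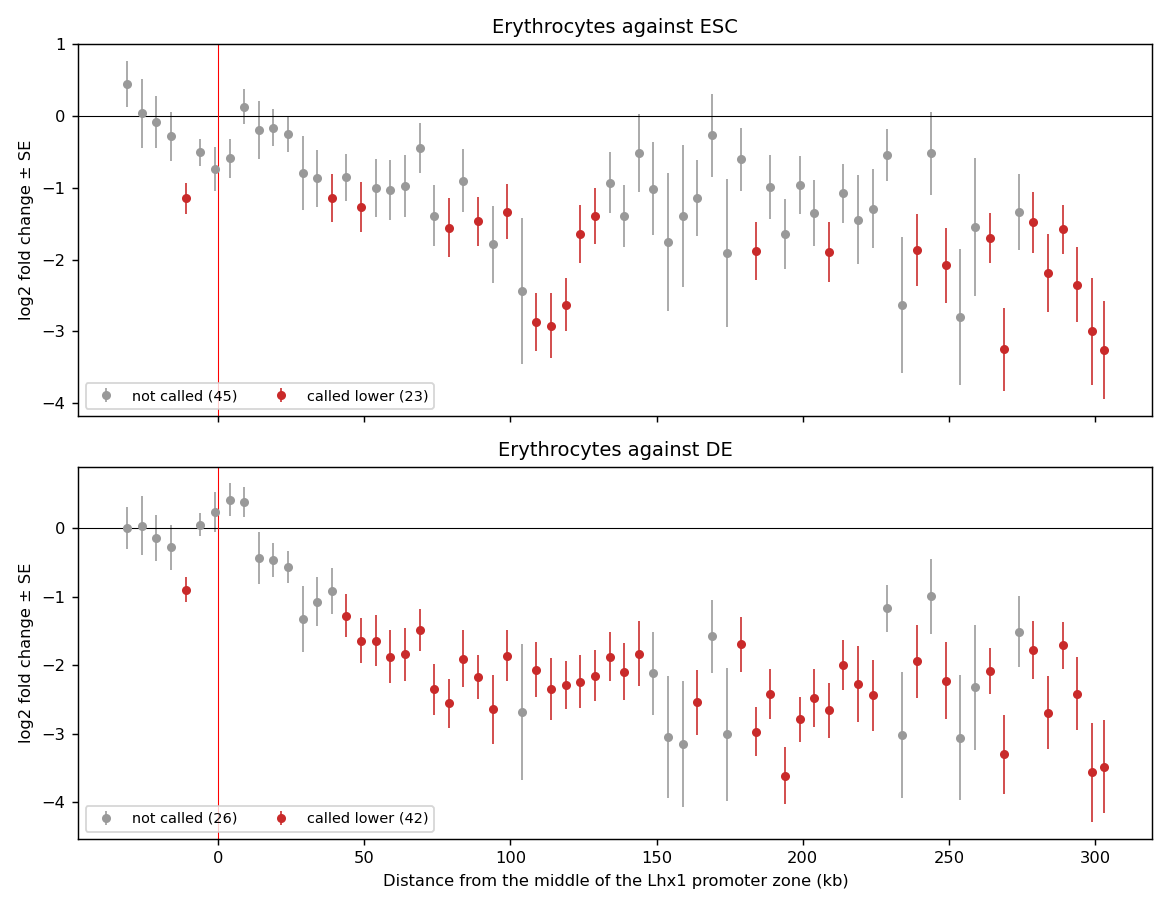
Log2 fold change of erythrocytes against ESC (top) and against DE (bottom) for the 68 bins by distance from the middle of the zone (log2 of the value + 10, limma, bars ± SE). The 3 bins around the zone lie below 0 against ESC and above 0 against DE. From 11.4 kb outwards on the right all bins lie below 0 in both panels.

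The ESC peak near 110 kb was low in erythrocytes. The bin from 106 to 111 kb had 160, 288 and 95.8 in the erythrocyte libraries, from 27 reads, and ranked 18th of 60. The log2 fold change was -2.87 against ESC (SE 0.40, limma adjusted p = 0.00576) and -2.06 against DE (SE 0.41, limma adjusted p = 0.0100). The highest erythrocyte bin beyond 20 kb was on the left arm, from -28.6 to -23.6 kb in Aatf, with 628, 1153 and 287, against 456, 527 and 806 in ESC.

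At 1700109G15Rik the erythrocyte libraries had 74.5, 32.0 and 63.9 in the bin of the transcript, from 10 reads. Pooled over libraries this was 12.0 times below DE (exact 95% counting interval 6.44 to 25.1), with a log2 fold change of -3.61 (SE 0.41, limma adjusted p = 0.00143), and it passed in all 16 other fits. Against ESC the same bin had a log2 fold change of -1.64 (limma adjusted p = 0.0518).
The 3 called bins with the largest falls against ESC lay near the right end. They passed in 12, 9 and 10 of the 16 other fits, in order of distance. All lost their call with DESeq2 size factors and whenever 1 ESC replicate was left out. The bin from 266 to 271 kb had 170, 32.0 and 31.9 in erythrocytes and 654, 625 and 639 in ESC, 5.53 times higher in ESC (3.41 to 9.53). The last pair of bins, over Dhrs11, had 6 and 1 erythrocyte reads against 82 and 33 in ESC and 234 and 83 in DE. Pooled ratios of ESC to erythrocytes were 7.09 (3.12 to 19.9) and 17.1 (2.87 to 696). Across the domain erythrocyte bins had a median of 22 reads, against 112 in ESC and 340 in DE, and 9 bins had an erythrocyte library at 0.

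Spread between libraries was widest in erythrocytes. The median coefficient of variation over bins was 15.2% in ESC, 9.71% in DE and 47.2% in erythrocytes, beside 17.1%, 9.54% and 41.0% from counting alone. Across the 60 bins beyond 20 kb, log2 values of replicate pairs had Pearson r of 0.829 to 0.892 in ESC and 0.845 to 0.909 in DE, and 0.351 to 0.550 in erythrocytes. Pairs of an ESC and a DE library had r of 0.395 to 0.633. The points of each r share the viewpoint, the bins and their fragment counts, and r is given as a description.

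Levels just outside the domain are given beside those of its arms beyond 20 kb. The 100 kb to the right of it had 16.9 ± 2.30 (SD, n = 3) contacts per kb in ESC, 20.2 ± 1.60 in DE and 7.28 ± 0.212 in erythrocytes. The right arm beyond 20 kb had 79.0 ± 1.93, 118 ± 0.448 and 31.7 ± 7.27, and the left arm beyond 20 kb had 87.5 ± 9.49, 102 ± 0.604 and 109 ± 33.1. In the 100 kb to the left of the domain the levels were 36.0 ± 3.02, 42.8 ± 3.91 and 36.8 ± 8.61, and all 3 cell types overlapped.

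The sequence features of the higher bins lay near those of the bins without a call. The domain had a median GC content of 48.8% over its 67 full bins, against 43.6% over 23744 windows of 5 kb on chromosome 11, and the 29 higher bins had 48.6%. The 5 lower bins had 51.5% and a median of 106 CpG. The 3 of these around the zone had 116, 263 and 106 CpG, and the pair beyond 20 kb had a median of 48. Median CpG counts were 51 in the higher bins, 57 in the bins without a call and 43 over the chromosome. The CTCF core letters CNAGGNGGC, searched on both strands, were in 12 of 29 higher bins (41.4%), in all 5 lower bins and in 14 of 33 other bins, against 37.0% of windows on the chromosome. The T-box letters AGGTGTGA were in 4 higher and 1 lower bin, against 19.9% of windows. The Smad letters GTCTAGAC were in 2 higher bins and no lower bin, against 4.03% of windows. None of the 5 fragments with sequences above held any of the 3 motifs, and the promoter held 1 CTCF core match. A match is a run of letters and says nothing of binding in these cells. The 37 member fragments without a read were short, with a median of 10 bases and at most 32, against 297 bases for those with a read.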

How the data were processed

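NG Capture-C libraries from ESC, DE and erythrocytes were read at promoter viewpoints. Per the submitters' processing notes, the authors used Trim Galore and Bowtie and the mm9 build, with versions not given in the sources used here. They deposited, per DpnII fragment and library, a signal of interactions scaled to 100000 per viewpoint and library, in which whole reads could be recovered (100% of Lhx1 values within 0.05 of a whole number of reads). The authors' 3 tables held 36 columns used here and 72 that were not used. The members, lists and tests were chosen with earlier results of these data known, and the domain ends come from the study's own drawing of these profiles.

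Fragments were matched to the GATC digest of chromosome 11 and named from GENCODE vM1. Values were scaled to 100000 interactions on chromosome 11. Fragments were placed by midpoint in 5 kb bins that start at the domain's left end. Features with at least 10 reads over the libraries compared were tested with limma 3.58.1 (lmFit, eBayes with trend) on log2(value + 10) with Benjamini-Hochberg adjustment at 0.05. edgeR 4.0.16 and DESeq2 1.42.0 on recovered reads were alternatives. The fits were tested on simulated data. Shares were set against each other with the exact permutation test of scipy 1.17.1, two-sided, whose smallest p is 0.1. Wilson and exact intervals cover counting error only, since reads are not all independent molecules. Named sites were up to 6 bins higher and 6 lower in DE than in ESC with the largest change and no overlap, up to 3 each way against erythrocytes, the bins of gene starts, and the 3 fragments of largest rise and fall, of which 1 is not reported here.

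No replicate pair agreed within sampling noise over chromosome 11 bins and the other chromosomes together (chi-square per degree of freedom 1.65 to 21.5). The labels number replicates 1 to 3 without naming separate cultures or animals, so p-values measure the spread between these samples. In the limma fit of DE against ESC bins, the SE followed the level of a bin rather than its own spread. The bin from 216 to 221 kb had an SD of 132 in ESC and 88.5 in DE, with SE 0.229. The bin from 221 to 226 kb had 13.0 and 34.5, with SE 0.229. Small adjusted p-values in that fit thus rest on spread pooled over bins. For the bin beside the zone over part of 1500016L03Rik, they ran from 6.54e-48 to 1.25e-06 without 1 library.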

Additional observations from a re-analysis of the deposited data

How the results depend on the processing

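The mean DE share stayed above and the mean erythrocyte share below the mean ESC share under each alternative run, though with all interactions as the total ESC and DE libraries overlapped. Values follow in the order DE minus ESC, erythrocytes minus ESC and erythrocytes minus DE. With all interactions as the total the differences were 0.335, -13.7 and -14.1 percentage points. With total and members beyond 20 kb, DE minus ESC was 8.54 and erythrocytes minus DE -26.9. With 5 kb left out around the zone, DE minus ESC was 10.9 and erythrocytes minus ESC -14.5. Leaving out 1 library gave 5.73 to 6.89, -18.7 to -17.2 and -25.0 to -23.5.

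The count of 34 domain bins called between DE and ESC became 28 to 36 without 1 library, 20 (10 kb bins) and 5 (all 3 cell types). The count of 23 for erythrocytes against ESC became 9 (TMM), 3 (DESeq2 size factors), 14 (pseudocount 2), 8 (no minimum of reads), 39 (all 3 cell types), 15 (10 kb bins), 13 (bins moved along by part of their width) and 0 to 35 without 1 library. The count of 42 against DE became 5 (DESeq2 size factors), 26 (10 kb bins) and 22 to 53 without 1 library. The cause was not tested. The count of 55 fragments became 33 (TMM), 36 (DESeq2 size factors), 22 (DESeq2), 17 (pseudocount 2), 85 (pseudocount 50), 14 (no minimum of reads), 4 (all 3 cell types) and 12 to 75 without 1 library.

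Same-numbered libraries did not deviate together (r of -0.0273 to 0.0812), so the libraries were not treated as pairs, and a shared batch was not tested otherwise. With the replicate block the counts were 34, 22, 54 and 38 and the share differences 6.27, -17.8 and -24.1. Over the named bins and fragments, 424 alternative values stayed on their side of the threshold, 51 lost a call, 5 gained one, and no called value changed direction.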
